A study of Homo sapiens with 4 samples.

Results

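GAS5, SNHG1 and SNHG8, long noncoding RNAs that carry small nucleolar RNAs (snoRNAs) in their introns, were lower in each of 3 NOS2KO clones of SUM159 cells than in the parental cells, by 2.16-fold to 6.02-fold. SNHG5, a gene of the same kind, lay between 1.52-fold lower and 1.03-fold higher, and the nuclear RNA MALAT1 was 1.12-fold to 1.31-fold higher. H19 was 28.9-fold higher in clone 1 and within 2.12-fold of the parental level in clones 5 and 6. The genes described are the 10 long noncoding RNAs MALAT1, NEAT1, GAS5, SNHG1, SNHG5, SNHG8, H19, MEG3, MIR22HG and MIR31HG, chosen by symbol after matching gene identifiers to GENCODE release 29. All 10 were found, out of 57500 gene rows, and 9 passed the filter on low counts.

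SUM159 is a triple-negative breast cancer cell line that the study uses as a model of metaplastic breast cancer. RNA was sequenced from 1 library of unedited parental control cells and from 3 libraries labelled NOS2KO, namely clones 1, 5 and 6, with 1 library per clone. The clones came from parental cells given the NOS2 Double Nickase plasmid, a CRISPR reagent against the gene of inducible nitric oxide synthase (iNOS), and were kept after puromycin selection for their iNOS immunoblot and nitrite/nitrate assay. Each NOS2KO library is therefore 1 clone that also went through transfection, drug selection and growth as a clone. These steps cannot be told apart from the loss of NOS2, because the parental cells are not stated to have gone through them and had 1 library.

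The libraries held 90467395 counts in the parental cells, 122171287 in clone 1, 101337366 in clone 5 and 97362293 in clone 6. The NOS2 row held 2 counts for the parental cells against 3, 18 and 1 for the libraries labelled clones 1, 5 and 6, so its RNA was at or near the floor of 3 counts in the parental cells and did not check the labels. The line's markers VIM, ZEB1, CD44 and EGFR were present at 39.5 to 3854 CPM (counts scaled to the size of the library), while ESR1, PGR, CDH1 and EPCAM stayed under 1 CPM and ERBB2 ran from 48.3 to 106. Of the leukocyte markers given here, PTPRC stood at 4.45 CPM in the parental library and at 68.4, 105 and 41.7 in clones 1, 5 and 6, with CD3E and CD68 at most at 0.294. The endothelial gene PECAM1 ran from 7.06 to 16.1 CPM, and CDH5 and VWF stayed below 4. The mitochondrial share of counts was 1.41% in the parental library and 1.68% to 2.06% in the clones, and its part in the results below was not tested.

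Long noncoding RNAs are transcripts without a long open reading frame that act as RNA or through the act of being transcribed. Genes of the SNHG family and GAS5 hold snoRNAs in their introns. The snoRNAs are released when the host is spliced and then guide the methylation or pseudouridylation of ribosomal and spliceosomal RNA, whereas the spliced host RNA is often engaged by ribosomes and degraded by nonsense-mediated decay. MALAT1 and NEAT1 stay in the nucleus, in nuclear speckles and paraspeckles, and H19 and MEG3 are imprinted genes expressed from the maternal chromosome. MIR22HG is the host transcript of miR-22, and MIR31HG lies over the gene of miR-31, near the CDKN2A locus.

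Many snoRNA hosts begin with a C and a run of pyrimidines, the terminal oligopyrimidine start that they share with ribosomal protein mRNAs. A start with C and at least 4 further pyrimidines was searched for in the GENCODE release 29 transcripts. It was held by 2.41% of all 206694 transcripts, and 6.75% of all genes had at least 1 such transcript. All 4 snoRNA hosts had one: 6 of 29 transcripts of GAS5, 1 of 25 of SNHG1, 3 of 23 of SNHG5 and 1 of 5 of SNHG8. A gene with more annotated transcripts has more chances to hold one, and the 6.75% was not matched for their number. The RefSeq starts of SNHG1 and SNHG8, shown later, do not have it. None of the annotated transcripts of MALAT1, NEAT1, H19, MEG3, MIR22HG or MIR31HG did. The first 30 bases of 1 such transcript per gene are shown because the start is a feature that GAS5, SNHG8 and SNHG5 have in common although their levels did not move alike, and ZFAS1 and SNHG12 are added as further hosts described later. SNHG15 (0 of 10 transcripts) and SNHG17 (0 of 8), which also fell, had no such start. Capitals mark the pyrimidine run.
GAS5: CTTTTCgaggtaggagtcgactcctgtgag
SNHG8: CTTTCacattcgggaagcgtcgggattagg
SNHG5: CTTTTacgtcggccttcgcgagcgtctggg
SNHG1: CTCCTgtctgcaggatttacgcgcacgttg
ZFAS1: CTTTCgcgtctgcggtgcccggagtgtggt
SNHG12: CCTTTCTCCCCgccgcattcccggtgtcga

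The first question was how the noncoding snoRNA hosts stood in the NOS2KO clones against the parental cells. GAS5 (ENSG00000234741, GRCh38 chromosome 1, 173863900 to 173868882, minus strand), named for its rise in growth-arrested cells, had 40875 counts in the parental library and 8612, 12795 and 18505 in clones 1, 5 and 6. On the scale of CPM with TMM library scaling, which is used for all levels below, these were 452 in the parental cells and 75.1, 120 and 188 in the clones. The parental value was the highest of the 4, and the clones spread over 2.5-fold, at 128 ± 56.7 (SD, n = 3 clones). Relative to the parental cells the log2 ratio came to −2.59 in clone 1 (95% interval −2.62 to −2.56), −1.91 in clone 5 (−1.94 to −1.88) and −1.27 in clone 6 (−1.29 to −1.24). These are exact Clopper-Pearson intervals, which cover counting error only, and the 3 ratios share the 1 parental library. In bulk RNA a lower level per cell and fewer cells that express a gene cannot be told apart. The fitted log2 fold change was −1.83 with a standard error of 0.56 (edgeR quasi-likelihood test, adjusted p = 0.353).

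SNHG1 (ENSG00000255717, chromosome 11, 62851988 to 62855914, minus strand) holds several box C/D snoRNAs. It had 18925 counts in the parental cells and 4806, 5169 and 6584 in clones 1, 5 and 6, or 209 CPM against 41.9, 48.5 and 66.8. The clones lay within 1.59-fold of each other and were 5-fold, 4.32-fold and 3.14-fold lower than the parental value. Its fitted log2 fold change was −2.0 with a standard error of 0.36, and its adjusted p was the lowest of the 9 genes tested (edgeR, adjusted p = 0.275).

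SNHG8 (ENSG00000269893, chromosome 4, 118278709 to 118279823, plus strand) is the short host of the box H/ACA snoRNA SNORA24. Its counts were 9960 in the parental library and 3813, 3848 and 5019 in the clones, which gave 110 CPM against 33.2, 36.1 and 50.9. Clones 1 and 5 were nearly level and clone 6 was higher than both by 1.53-fold and 1.41-fold. The fitted log2 fold change was −1.46 with a standard error of 0.35 (edgeR, adjusted p = 0.327).

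SNHG5 (ENSG00000203875, chromosome 6, 85660950 to 85678736, minus strand) hosts the SNORD50 snoRNAs and did not share the drop. It stood at 359 CPM in the parental cells and at 236, 308 and 371 in clones 1, 5 and 6, so the parental value lay inside the range of the clones. The log2 fold change was −0.23 with a standard error of 0.37 (edgeR, adjusted p = 0.822). The clones spread over 1.57-fold, so a smaller difference from the parental cells could not be seen.

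By the criterion of the study's volcano plot, an unadjusted p under 0.05 with a log2 fold change above 1 or below −1, 3 of the 9 genes tested fell (GAS5, SNHG1 and SNHG8) and 0 rose. Over all 22511 genes tested 5.34% fell and 4.24% rose by this criterion, 9.58% in all. The 3 genes met it also with clone 1, 5 or 6 left out, when 7.34%, 4.63% and 3.72% of genes fell. DESeq2 put the 3 past the same limits, beside 5.08% of genes. At an adjusted p under 0.05 edgeR called 0 of the 9 and 0.00444% of all genes. DESeq2's Wald test called 2 of the 9, SNHG1 (adjusted p = 0.0016) and SNHG8 (0.0386), beside 4.86% of all genes, while over all alternatives their adjusted p reached 0.726 and 0.727. With 1 parental library an exact permutation test cannot go below p = 0.25, and the spread of the fit comes from the clones alone. The genes were chosen with earlier results of these data known, so the shares beside them are a description.

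**Figure D1:**
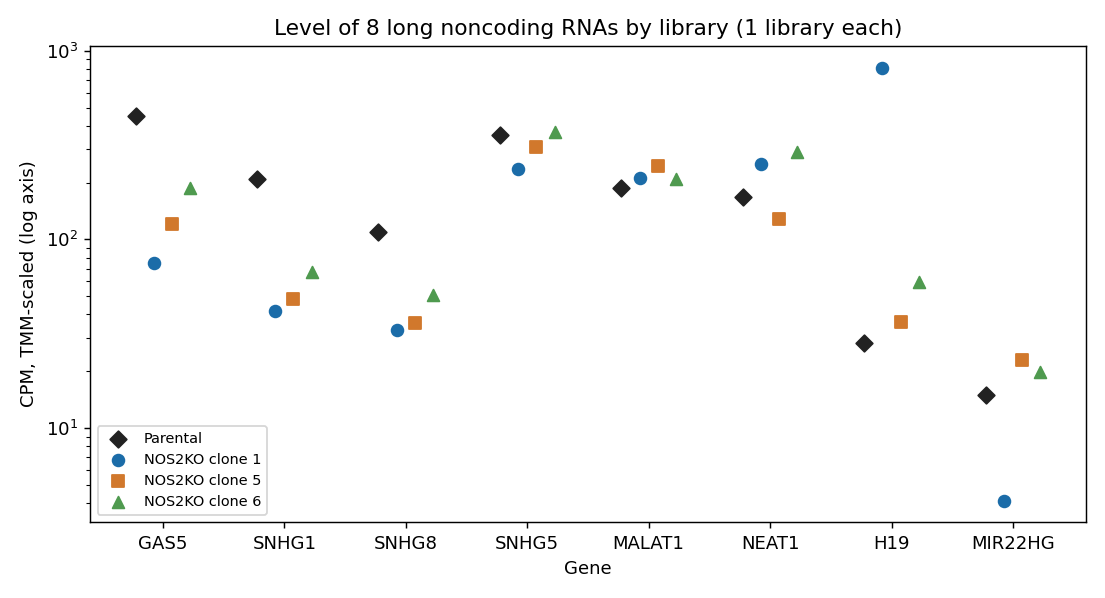
Level of 8 long noncoding RNAs in TMM-scaled CPM on a log axis, with 1 point per library. The parental diamond lies above all clones for GAS5 (452 CPM), SNHG1 (209) and SNHG8 (110), and H19 in clone 1 stands apart at 815.

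Clone by clone, 8 of the genes reached 10 CPM somewhere. Of these GAS5, SNHG1 and SNHG8 had a log2 ratio below −1 in every clone, against 5.24% of the 10708 genes at that level, and 0 of the 8 had a ratio above 1 in every clone, against 4.26%. In clone 1 MIR22HG was also lower by over 1, which made 4 of 8 beside 11.1% of genes. In clones 5 and 6 the 3 snoRNA hosts were the ones lower by over 1, beside 12.8% and 12.3% of genes. H19 was higher by over 1 in clones 1 and 6, where 11.5% and 10.7% of genes were, and none of the 8 was in clone 5, where 10.3% were. For GAS5, SNHG1 and SNHG8 alike clone 1 was the lowest and clone 6 the highest of the clones. With upper quartile scaling SNHG8 in clone 6 was at −0.98, just inside the threshold.

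**Figure D2:**
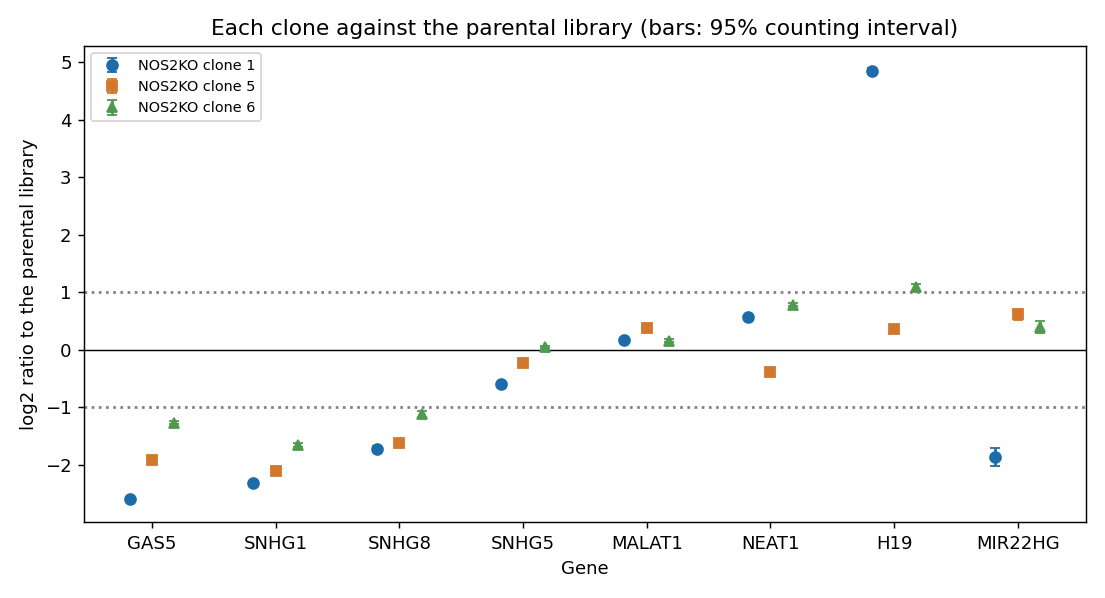
log2 ratio of each NOS2KO clone to the parental library for 8 genes, with exact 95% counting intervals that are mostly smaller than the symbols and dotted lines at 1 and −1. GAS5, SNHG1 and SNHG8 lie below −1 in all 3 clones, from −2.59 to −1.11, while MIR22HG and H19 in clone 1 (−1.86 and 4.85) part from the other clones.

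Ratios within a library do not depend on the scaling. Per length, in CPM divided by exonic length in kilobases (RPKM), GAS5 stood at 0.969 of the level of SNHG5 in the parental cells and at 0.244, 0.3 and 0.389 in clones 1, 5 and 6. This length counts all annotated exons of a gene together and need not match its spliced RNA. Levels, ratios and ranks between genes therefore depend on the annotation. The length cancels when the same ratio is compared between libraries. SNHG1 was at 0.434 of SNHG5 in the parental cells and at 0.132, 0.117 and 0.134 in the clones. SNHG8 was at 0.928 of SNHG5 and then at 0.426, 0.355 and 0.415. The hosts thus shifted against each other as well as against the rest of the libraries, with SNHG1 against SNHG5 at 0.27 to 0.309 of its parental ratio in every clone. GAS5 and SNHG1 moved more nearly together, since their ratio to each other was 2.23 in the parental cells and 1.85 to 2.91 in the clones.

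In the parental cells the RPKM levels were 129 for SNHG5, 125 for GAS5 and 119 for SNHG8, which differ by less than the clones do for any of these genes, then 55.7 for SNHG1, 21.3 for MALAT1, 9.98 for H19, 7.39 for NEAT1 and 5.02 for MIR22HG. SNHG5, GAS5 and SNHG8 ranked 3, 4 and 5 of 14411 rows annotated as long noncoding RNA in that library. In clones 5 and 6 the order of the leading genes was SNHG5, SNHG8, GAS5 and MALAT1, with GAS5 at rank 9 and 8 of the long noncoding rows. In clone 1 H19 came first, followed by SNHG5, SNHG8, MALAT1 and GAS5, and GAS5 was at rank 22. GAS5 made up 4.62% of all long noncoding counts in the parental library and 0.84%, 1.46% and 2.12% in clones 1, 5 and 6.

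The snoRNAs themselves could not be followed in these libraries, which were made from oligo(dT)-enriched RNA. SNORD30, inside SNHG1, had 3, 5, 2 and 7 counts in the parental cells and clones 1, 5 and 6. The other 5 snoRNA rows matched inside SNHG1, and the 1 each inside SNHG5 and SNHG8, were at 0 in all 4 libraries. No snoRNA row was matched inside GAS5. These snoRNA rows share bases with annotated exons of their hosts, 70 in SNHG5 and 131 in SNHG8. In SNHG1 they and a further row, RF00099, together share 576. How reads that overlap several genes were counted is not given, so this cannot be told apart from the enrichment. The snoRNA rows together took 0.00191% to 0.00212% of all counts.

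A list of further noncoding snoRNA hosts was chosen with earlier results of these data known. It gave 22 rows of 25 symbols, of which 21 were tested. C6orf48 is on this list and, being annotated as protein-coding, also counts among the protein-coding hosts described later. Of the 21 tested, 4 fell (19%, beside 5.34% of all genes), 1 rose and 16 met neither side, and because of that choice the share is a description. Their median log2 fold change was −0.27, beside 0.10 over all genes tested and 0.33 over the 4392 long noncoding rows tested. None was called at an adjusted p under 0.05 by edgeR, beside 0.00444% of all genes. An unadjusted p under 0.05 was reached by 5 in edgeR, beside 2590 of all 22511 genes. DESeq2 called 4, beside 4.86% of all genes. These shares also stand beside the same counts of the lists below. The summed level of the list was 2096 CPM in the parental cells and 1292, 1123 and 1534 in clones 1, 5 and 6. Of the 19 that reached 10 CPM, 10 (52.6%) lay below the parental value in every clone, as did 37.3% of all genes at that level.

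SNHG17 was at 61.0 CPM in the parental library and at 15.2, 14.5 and 14.5 in the clones, the tightest agreement between clones among the hosts that fell (log2 fold change −2.05, SE 0.28). SNHG15 stood at 49.5 CPM and then at 15.9, 15.0 and 14.3, a log2 fold change of −1.71. ZFAS1, the antisense neighbour of ZNFX1 and the most abundant of the hosts that fell in the list, went from 347 CPM to 81.2, 91.6 and 148, a log2 fold change of −1.70. SNHG12 went from 44.4 CPM to 16.5, 14.1 and 12.0, at −1.64 on the log2 scale. In all 4 the parental library lay above every clone.

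The host that rose, SNHG18, had 13.4 CPM in the parental cells and 22.8, 30.8 and 37.7 in the clones (log2 fold change 1.18, SE 0.39), and it no longer met the criterion without clone 5 or without clone 6. DANCR, singled out after its values were seen, was at 40.8 CPM in the parental cells, 161 in clone 1, and 39.0 and 44.9 in clones 5 and 6. GAS5 and ZFAS1 kept nearly the same RPKM ratio in the parental library and in clones 5 and 6, at 0.805, 0.809 and 0.784, with 0.571 in clone 1.

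**Figure D3:**
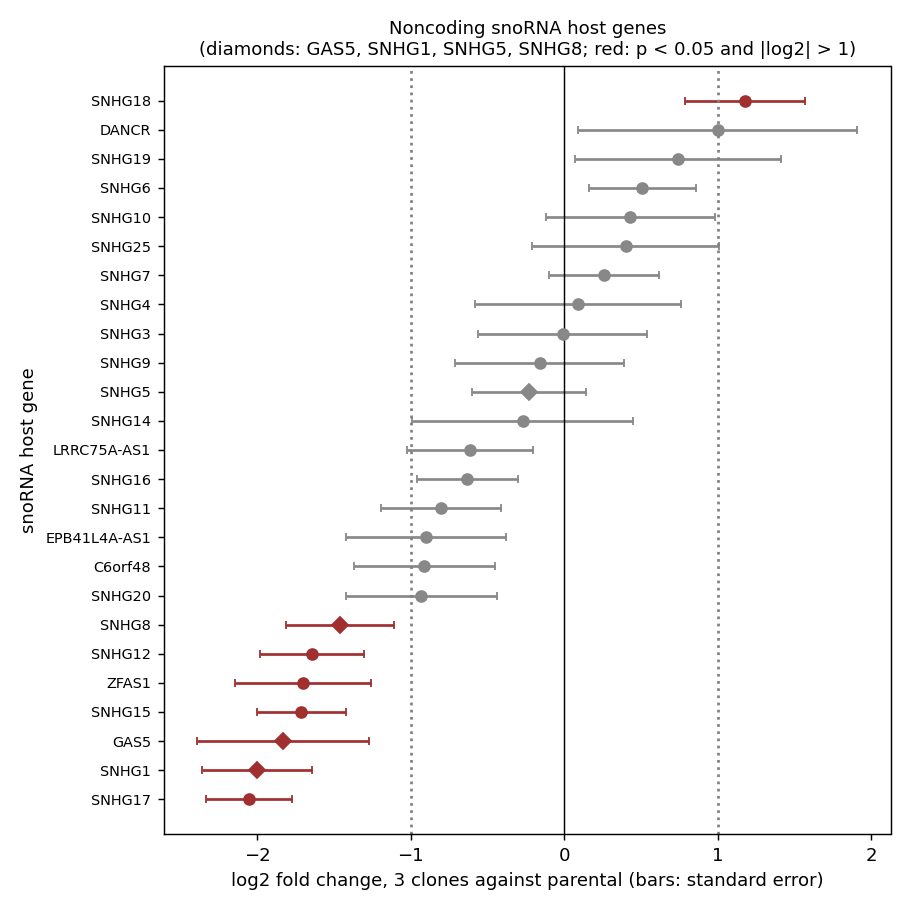
Fitted log2 fold change (3 clones against parental) with its standard error for 25 noncoding snoRNA hosts, where diamonds mark GAS5, SNHG1, SNHG5 and SNHG8 and red marks genes that met the fold and p criterion. SNHG17, SNHG1, GAS5, SNHG15, ZFAS1, SNHG12 and SNHG8 lie at the low end between −2.05 and −1.46, and SNHG18 alone is red on the high side at 1.18.

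Protein-coding genes can host snoRNAs too. Of 108 such genes tested, without ribosomal protein genes, 7 fell and 2 rose, beside 5.34% and 4.24% of all genes, with a median log2 fold change of −0.21. HSPA8, a constitutive HSP70 chaperone, was at 606 CPM in the parental cells and at 3500, 1854 and 2446 in the clones. HSPA9, the mitochondrial HSP70, was at 1264 and then at 367, 281 and 360. RAB30, a small GTPase of the Golgi, went from 21.3 CPM to 41.6, 94.8 and 86.8, and DKC1, the pseudouridine synthase of H/ACA snoRNPs, from 320 to 149, 72.7 and 78.1. Without clone 1, 15 of 108 fell, beside 7.34% of all genes, and without clones 5 and 6 it was 5 of 107 and 7 of 108. Of 28 ribosomal protein genes that host snoRNAs, 1 rose and 0 fell, beside the same shares of all genes, with a median of 0.23 (1 had an unadjusted p under 0.05 in edgeR, and DESeq2 called 1). That gene was RPL7A, at 543 CPM in the parental cells and 1548, 1598 and 1678 in the clones.

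The 13 snoRNP proteins, which bind and process snoRNAs, had a median log2 fold change of −0.86. Of these 2 fell by the criterion, beside 5.34% of all genes, namely DKC1 and NOP58, and both also count among the protein-coding hosts. NOP58, a core protein of box C/D snoRNPs, was at 214 CPM in the parental cells and 119, 69.5 and 63.6 in the clones. Of the 13, 7 fell without clone 1, where 7.34% of all genes did. Without clone 5 and without clone 6 it was 1 each, where 4.63% and 3.72% of all genes fell. Among 16 factors of nonsense-mediated decay 3 fell. UPF3B went from 82.2 CPM to 26.4, 31.3 and 22.5, the kinase SMG1 from 158 to 62.2, 78.6 and 74.8, and UPF3A from 65.8 to 30.2, 27.2 and 39.8. The median of the decay factors was −0.42. The 3 that fell stand beside 5.34% of all genes, and 12 of the 16 were below the parental value in every clone, as were 37.3% of genes at 10 CPM or more.

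**Figure D4:**
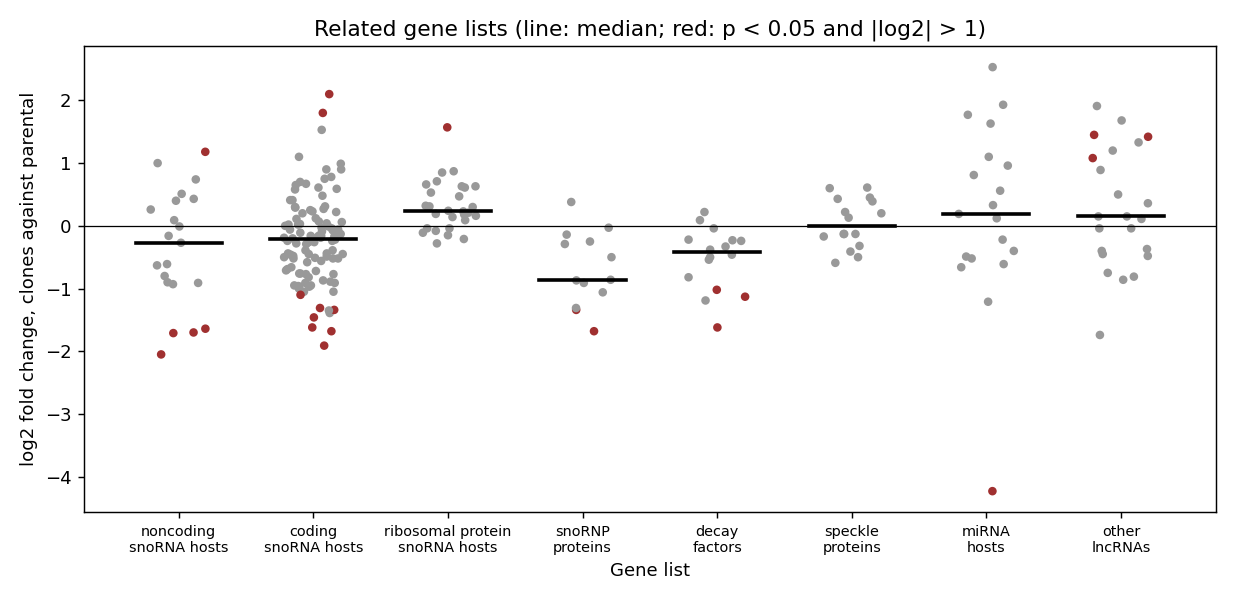
Fitted log2 fold changes of the tested genes in 8 related lists, with a black line at each median and red points for genes that met the fold and p criterion. The snoRNP proteins have the lowest median (−0.86), the decay factors lie at −0.42, and the ribosomal protein hosts and speckle proteins lie at 0.23 and 0.00.

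SNHG1 starts head to head with SLC3A2, the heavy chain of several amino acid transporters. The annotated ends of the genes lie 188 bases apart. In RefSeq a start site of SLC3A2, at 62856109, lies 224 bases from that of SNHG1, inside the same promoter window. Further RefSeq starts of SLC3A2 lie at 62880896 and 62881699, outside this window. The counts are for the whole gene and do not tell which start was used. SLC3A2 was at 1471 CPM in the parental cells and at 206, 158 and 137 in clones 1, 5 and 6 (log2 fold change −3.14, SE 0.37, edgeR, adjusted p = 0.259). Its drop was larger than that of SNHG1 in each clone, and the RPKM ratio of SNHG1 to SLC3A2 went from 0.196 to 0.281, 0.422 and 0.674. The next gene on the other side of SNHG1, WDR74, went from 126 CPM to 53.3, 29.8 and 36.1, a log2 fold change of −1.66. The kit is not stated to mark strand, so reads from transcripts that overlap on opposite strands would not be separated. SNHG1 shares exonic bases (15.3%) only with rows on its own strand.

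The RefSeq window of SNHG1 (GRCh38.p14, chr11:62855836-62856135, minus strand, 250 bases before to 50 bases after its start) is shown because it holds the nearest RefSeq start of SLC3A2, which runs in the other direction. Capitals at its left end mark the 27 bases from that SLC3A2 start outwards. Those at its right end mark the 50 bases from the RefSeq start of SNHG1.
SNHG1 window: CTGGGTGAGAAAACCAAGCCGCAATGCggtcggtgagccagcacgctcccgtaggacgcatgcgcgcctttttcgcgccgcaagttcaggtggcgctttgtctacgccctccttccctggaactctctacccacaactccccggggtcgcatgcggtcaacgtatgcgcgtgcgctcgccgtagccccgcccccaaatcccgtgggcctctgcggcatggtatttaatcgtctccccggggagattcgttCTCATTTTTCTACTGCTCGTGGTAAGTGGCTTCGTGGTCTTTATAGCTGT
The window of SNHG8 (chr4:118278512-118278811, plus strand) is shown for comparison, with the 50 bases from its RefSeq start in capitals. The pyrimidine start of SNHG8 shown earlier begins just upstream of these capitals.
SNHG8 window: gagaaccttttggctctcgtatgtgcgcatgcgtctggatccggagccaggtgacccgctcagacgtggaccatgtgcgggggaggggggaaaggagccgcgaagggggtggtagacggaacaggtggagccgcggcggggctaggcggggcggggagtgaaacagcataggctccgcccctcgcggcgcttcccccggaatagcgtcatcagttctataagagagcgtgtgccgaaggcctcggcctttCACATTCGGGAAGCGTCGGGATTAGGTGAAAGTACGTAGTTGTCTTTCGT

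Over the 12 RefSeq windows of the 9 genes that had one, the letters TGANTCA (an AP-1 site) and CACGTG (an E-box) were in none, and TGACGTCA (a cyclic AMP response element) was in those of MEG3. On both strands these letters are held by 7.71%, 7.26% and 1.85% of all 35116 windows of that length.

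PRSS12, whose annotated span lies 215 bases from that of SNHG8, was at 16.6 CPM in the parental cells and 39.0, 23.4 and 16.9 in the clones (log2 fold change 0.67, SE 0.54), so it was not lower with SNHG8. On the other side of SNHG8, NDST3 went from 32 counts to 312, 340 and 147, and the more distant TRAM1L1 from 173 to 851, 447 and 769. Over the nearest protein-coding genes of all 10, 36 distinct genes, 26 were tested, of which 2 fell (SLC3A2 and WDR74) and 3 rose (NDST3, TRAM1L1 and SERPINC1 near GAS5), or 19.2% beside 9.58% of all genes. SERPINC1 had 0 counts in the parental library and 16, 6 and 6 in the clones. ZBTB37, whose annotated span overlaps that of GAS5, was at 6.19 CPM in the parental cells and 4.46 to 5.42 in the clones.

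The nuclear RNAs differed less. MALAT1 (ENSG00000251562, chromosome 11, 65497762 to 65506516, plus strand) ends in a triple helix in place of a poly(A) tail and collects in nuclear speckles. It had 16891, 24273, 26153 and 20584 counts in the parental cells and clones 1, 5 and 6, or 187, 212, 245 and 209 CPM. All clones were above the parental value, as for 27.8% of genes at 10 CPM or more, and the clones spread over 1.18-fold, the least of the 8 genes. The log2 fold change was 0.25 with a standard error of 0.29 (edgeR, adjusted p = 0.765). Of its exonic bases 23.3% are shared with other rows, in part on the opposite strand.

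NEAT1 (ENSG00000245532, chromosome 11, 65422774 to 65445540, plus strand) is the scaffold of paraspeckles, and only its short form has a poly(A) tail. Its level was 168 CPM in the parental cells and 252, 128 and 292 in clones 1, 5 and 6, so the parental value lay among the clones. The log2 fold change was 0.41 with a standard error of 0.53 (edgeR, adjusted p = 0.789). Clones 5 and 6 differed by 2.28-fold, on the log2 scale by 1.19 (95% interval 1.16 to 1.22), a size that 4.91% of genes reached between these clones. NEAT1 to MALAT1 in RPKM was 0.346 in the parental cells and 0.458, 0.201 and 0.537 in the clones. The length used for NEAT1 was 22767 bases, not that of its short form, and MALAT1 lacks a poly(A) tail. The ratio is therefore read between libraries only, not as a ratio of abundances.

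The proteins of these bodies showed no call. Of 16 paraspeckle and nuclear speckle proteins, 0 met the criterion in edgeR, beside 9.58% of all genes. An unadjusted p under 0.05 was reached by 0 in edgeR, beside 2590 of all 22511 genes. DESeq2 called 0, beside 4.86% of all genes. With 16 genes, 0 stands near these shares. The median log2 fold change was 0.00. Their summed level was 4743 CPM in the parental cells and 4246 to 5206 in the clones. Among listed RNAs that lack a poly(A) tail, RMRP had at most 2 counts and RPPH1 had 0 in all libraries, whereas RN7SL2, the signal recognition particle RNA, was at 51.9, 43.3, 40.9 and 61.0 CPM.

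H19 (ENSG00000130600, chromosome 11, 1995163 to 2001470, minus strand) gave the widest spread between clones. Its counts were 2548 in the parental cells and 93528, 3885 and 5901 in clones 1, 5 and 6, or 28.2, 815, 36.4 and 59.8 CPM. Clone 1 was 22.4-fold above clone 5 and 13.6-fold above clone 6. The log2 ratios to the parental library were 4.85 (95% interval 4.80 to 4.91), 0.37 (0.30 to 0.44) and 1.09 (1.02 to 1.15). The clones were all above the parental cells, but the fitted log2 fold change of 3.43 had a standard error of 1.82 (edgeR, adjusted p = 0.595), and without clone 1 it was 0.77. H19 was first among 14411 long noncoding rows by RPKM in clone 1, with 9.12% of their counts, and was at rank 61 with 0.288% in the parental library. It was 1 of 12 genes, 0.116% of 10384, in which clone 1 held at least 10 times the CPM of every other library.

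H19 is the host of miR-675, and its exon holds the hairpin. The mature sequences are shown because the microRNA is cut from the RNA that differed most, with the seed, bases 2 to 8, in capitals.
hsa-miR-675-5p: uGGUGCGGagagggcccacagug
hsa-miR-675-3p: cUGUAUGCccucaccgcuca
The seeds differ from each other and from those of miR-22 and miR-31 given later. Mature microRNAs were not measured in these libraries.

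IGF2, the imprinted growth factor gene next to H19 that is expressed from the paternal chromosome, was at 2.33 CPM in the parental cells and at 9.62, 7.86 and 2.94 in clones 1, 5 and 6 (log2 fold change 1.54, SE 0.77, short of the criterion). The RPKM ratio of H19 to IGF2 was 26.8 in the parental library and 188, 10.3 and 45.1 in the clones. MRPL23, on the other side of H19, was at 17.8 CPM and then at 30.2, 25.3 and 29.7. Of 12 imprinted partners and readers tested 1 rose, CDKN1C, a cyclin-dependent kinase inhibitor of the same imprinted region, from 6.09 CPM to 15.5, 36.2 and 27.2, and 0 fell, beside 4.24% and 5.34% of all genes (1 had an unadjusted p under 0.05 in edgeR, and DESeq2 called 1). KCNQ1OT1, the antisense RNA of that region, went from 1.5 CPM to 4.57, 3.69 and 3.86.

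MEG3 (ENSG00000214548, chromosome 14, 100779410 to 100861031, plus strand), a maternally expressed RNA often silent in tumour lines, was barely detected, with 10, 10, 5 and 0 counts in the parental cells and clones 1, 5 and 6. Taking 3 counts in clone 6 as the floor, it was 3.64-fold lower there than in the parental library, leaving counting error aside. With counting error, the upper end of the exact interval of its log2 ratio in clone 6 was −1.29. At these counts no difference in MEG3 was detectable in the fit (edgeR, adjusted p = 0.793). Its imprinted neighbour DLK1 had 0 counts in all 4 libraries. RTL1, on its other side, had 2, 67, 0 and 2 counts.

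MIR22HG (ENSG00000186594, chromosome 17, 1711493 to 1717174, minus strand) had 1355 counts in the parental library and 473, 2456 and 1956 in clones 1, 5 and 6, or 15.0, 4.12, 23.0 and 19.8 CPM. Clone 1 was below the parental cells and clones 5 and 6 above them, with log2 ratios of −1.86 (95% interval −2.02 to −1.71), 0.62 (0.52 to 0.72) and 0.40 (0.30 to 0.51). The clones spread over 5.59-fold, and the fitted log2 fold change was 0.06 with a standard error of 0.96 (edgeR, adjusted p = 0.986). Its sign turned to −0.30 without clone 5 and to −0.14 without clone 6. Clone 1 differed from clone 5 by over 1 on the log2 scale for MIR22HG and H19, 2 of 8 genes beside 16.1% of all, and from clone 6 also for GAS5, 3 of 8 beside 15.9%. WDR81, whose span overlaps MIR22HG, was at 38.4 CPM in the parental cells and 23.9, 50.9 and 54.7 in the clones, the same order of clone 1 below and clones 5 and 6 above.

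MIR31HG (ENSG00000171889, chromosome 9, 21455642 to 21559669, minus strand) had 12 counts in the parental cells and 0 in each clone, and did not pass the filter on low counts. With 3 counts per library as the floor it was 5.08-fold, 4.72-fold and 4.36-fold lower in clones 1, 5 and 6, leaving counting error aside. With counting error, the upper ends of the exact intervals of its log2 ratios to the parental library were −1.82, −1.71 and −1.60. The neighbouring IFNA1, IFNE and MTAP had at most 1 count in any library. CDKN2A, the tumour suppressor further along the same arm, had 107 counts in the parental library and 12, 19 and 1 in the clones, and CDKN2B had 50 and then 13, 3 and 5. Of the exonic bases of MIR31HG 40.7% are shared with a row on the opposite strand, so its few counts cannot be assigned to a strand.

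The microRNAs of these hosts are given with their seeds in capitals because the 3 hosts differ in pattern.
hsa-miR-22-3p: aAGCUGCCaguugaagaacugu
hsa-miR-22-5p: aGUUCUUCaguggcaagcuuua
hsa-miR-31-5p: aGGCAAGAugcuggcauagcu
No seed is shared among them. The gene row of MIR31 had 0 counts in all 4 libraries.

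Of 19 further microRNA host genes tested, 1 fell and 0 rose, beside 5.34% and 4.24% of all genes, with a median log2 fold change of 0.19 (1 had an unadjusted p under 0.05 in edgeR, and DESeq2 called 0). That gene, MIR205HG, had 502 counts in the parental cells and 13, 79 and 3 in the clones, and it did not meet the criterion without clone 1. A list of other long noncoding RNAs, also chosen with earlier results known, had 23 rows tested. Of these 3 rose and 0 fell, beside 4.24% and 5.34% of all genes. In edgeR 4 had an unadjusted p under 0.05, beside 2590 of all 22511 genes, and DESeq2 called 1, beside 4.86% of all genes. Besides KCNQ1OT1 the genes that rose were TP53TG1, from 3.17 CPM to 9.55, 7.96 and 8.49, and LINC00511, from 9.5 to 18, 19.6 and 22.6. None of the 3 met the criterion without clone 5 or without clone 6.

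The genes whose pattern over the 4 libraries came nearest were found by the root mean square difference of centred log2 CPM, over 10707 other genes that reached 10 CPM. For SNHG1 it was NOTCH1, at 292 CPM in the parental cells and 57.7, 72.2 and 91.4 in the clones (difference 0.0482), and then AC125232.1 (0.0592). For SNHG8 these were KLF10 (0.0538) and SLC2A3 (0.0568), and for GAS5 they were MSC-AS1 (0.143), at 77.5, 15.9, 24.5 and 41.8 CPM, and GDPD1 (0.157). SNHG5 came nearest to FZD3 (0.0212) and TIGD2 (0.0245). MALAT1 was nearest to RAB11B (0.00749) and MGAT1 (0.012), NEAT1 to RPS12 (0.0804) and SPATA7 (0.0935), and MIR22HG to NTN4 (0.0664) and DOK4 (0.124). For H19 the nearest were ACTBL2 (0.451), at 0.188 CPM in the parental cells and 12.8, 0.385 and 0.314 in the clones, and WFDC3 (0.466), so no gene followed it as closely as genes followed the others. The 4 libraries give these distances as a description.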

How the data were processed

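The authors deposited 1 table of raw counts per library, whole numbers of reads per Ensembl gene from paired-end reads of oligo(dT)-enriched RNA. Per the submitters' processing notes, bcl2fastq 2.17, Trimmomatic 0.36, STAR 2.5.2b, featureCounts of Subread 1.5.2 and DESeq2 were used with GRCh38. The annotation release, strand setting and treatment of reads that overlap several genes are not given in the sources used here. The kit is not stated to mark strand.

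Of 57500 identifiers 56898 had a symbol in GENCODE release 29. Counts of all 4 libraries (90467395 to 122171287 counts) were fitted with edgeR 4.0.16 in R 4.3.3 (TMM, filterByExpr by group, quasi-likelihood test, Benjamini-Hochberg adjustment over 22511 genes). The fit had 2 residual degrees of freedom. Its p-values test the clones against the 1 parental library, with an error term from the spread between clones, moderated over genes. No spread of the parental cells enters it. CPM and RPKM used TMM-scaled library sizes. Scripts were tested on simulated data. Alternatives were other scalings, filters and priors, DESeq2 1.42.0, and leaving out each clone; the bias-adjusted quasi-likelihood method and leaving out clones for the annotated host lists were chosen after seeing the data. Named genes were the 10 described, up to 4 genes of each list that met the criterion by size of change, IGF2, DLK1, TALAM1 (no matching row), RMRP and RPPH1, the nearest neighbours, and the 2 genes nearest in pattern. The 10 genes and the lists were chosen with earlier results of these data known. Promoter and microRNA sequences come from RefSeq (GRCh38.p14), where 9 of the 10 genes had a window. Python 3.11.15 was used for the rest. A listed marker is not reported here.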

Additional observations from a re-analysis of the deposited data

How the results depend on the processing

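GAS5, SNHG1 and SNHG8 met the fold and p criterion, as the genes that fell among the 9 tested, under all 11 alternatives, and without the filter on low counts MIR31HG met it as well, which made 4 of 10. Leaving out clone 1, 5 or 6 kept these 3 while 7.34%, 4.63% and 3.72% of all genes fell. At an adjusted p under 0.05, edgeR called 1 gene of 22511 (2590 at an unadjusted p under 0.05), 6 without a filter on low counts and 5 with the bias-adjusted method, and DESeq2 called 1095. With any 1 clone left out edgeR called 0 genes, where 1467 to 4609 genes had an unadjusted p under 0.05. By the criterion 2157 genes passed, 1466 to 3399 with a clone left out, and 3399 without clone 1. More genes fell (1202) than rose (955), but with upper quartile scaling 1002 fell and 1124 rose, with DESeq2 1144 and 1591, and without clone 1 1608 and 1791. The median log2 fold change of all genes was 0.10, 0.20 with upper quartile scaling and 0.31 without a filter. The fold change of MIR22HG, 0.06 with all clones, was 0.52 without clone 1 and turned to −0.30 and −0.14 without clones 5 and 6. Of 98 fitted changes of single genes under the alternatives, 94 kept their direction and stayed uncalled at an adjusted p under 0.05. Their size could still cross the log2 limit of 1. H19 went from 3.43 to 0.77 without clone 1, and MEG3 from −1.27 to −0.71 without clone 6. The cause of these shifts was not tested. No paired analysis was possible because the parental group has 1 library with no number that it shares with the clones. MEG3 and MIR31HG were too shallow for a fold to be measured.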

Other observations

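Of 195 rows annotated as long noncoding RNA that reached 10 CPM, 27 (13.8%) had a log2 ratio to the parental cells below −1 in every clone and 9 (4.62%) a ratio above 1, beside 5.24% and 4.26% of all genes at that level. No test of that difference was made. Over the 4392 long noncoding rows tested, most of them low, 126 (2.87%) fell and 166 (3.78%) rose by the fold and p criterion. Of all genes tested 5.34% fell and 4.24% rose, so the smaller share of falls here goes the other way from that at 10 CPM. The median log2 fold change of these rows was 0.33.

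Histone genes, whose replication-dependent mRNAs lack a poly(A) tail, had a summed level of 57.2 CPM in the parental library and 97.2, 104 and 70.4 in clones 1, 5 and 6. Of 52 tested 1 rose, HIST1H3F, with 0 counts in the parental cells and 46, 8 and 10 in the clones, and 0 fell, beside 4.24% and 5.34% of all genes (1 had an unadjusted p under 0.05 in edgeR, and DESeq2 called 0).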
